A study of Mus musculus with 9 samples.

Results

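The 10 genes described here belong to the machinery of calcium-triggered exocytosis: the synaptotagmins Syt4, Syt6, Syt7 and Syt11, the SNARE genes Stx2 and Snap23, the complexins Cplx1 and Cplx2, and the SNARE disassembly genes Napa and Nsf. They were chosen by name, with earlier results of these data known. Every probe set of the array annotated to exactly 1 of them was taken, which gave 31 of 45037 probe sets. Of these 10 genes, 8 had a detected probe set, where detection means that the log2 signal reached 5 on 1 array or more, and Syt4 and Syt6 had none. At the probe set level 24 of the 31 were detected and 7 were not.

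RNA came from testes of 5 Tmem203 null samples and 4 wild type (WT) samples, all at 24 weeks of age on a C57BL/6J background. In the null mice the ATG and some of the leader of Tmem203 had been removed from the germ line, so the gene was disrupted in every tissue, and null males are infertile. Each sample was hybridised to an Affymetrix whole-genome mouse expression array, on which a gene is read by 1 or more probe sets. A value is a log2 signal, so a difference of 1 is a doubling, and log2 fold changes are given as null minus WT. The labels do not tie each array to an animal, and left and right testes were taken separately, so each p-value rests on the spread among the arrays, part of which may be technical.

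The Tmem203 probe set 1426277_at read 9.10, 9.13, 9.13, 9.06 and 9.10 in null testes and 9.67, 9.91, 9.93 and 9.71 in WT testes (log2 fold change -0.70, SE 0.06, limma adjusted p = 2.87e-04); where it lies relative to the deleted stretch is not known here, so it is a weak check of the labels. Array medians lay between 6.96 and 7.05. For the gene lists here and below, counts read each gene on its detected probe set of smallest p. List means per array read each gene on its detected probe set with the highest mean signal. Markers of haploid germ cells were strong in both groups: 11 genes of elongating spermatids averaged 13.83 to 13.88 in null and 13.83 to 13.88 in WT arrays, and of these and 9 genes of round spermatids 0 passed the limma test, with 1 of each list at an unadjusted p under 0.05. These means do not show equal cell numbers: by flow cytometry the study reported far fewer condensed haploid cells in null testes at a later age. Its flow cytometry in young mice showed no difference, and its histology at later ages found a subtle reduction in late spermatids. Whether signals this strong still follow cell number was not tested. Sertoli cell markers were higher in null testes for 7 of 12 genes (mean per array 11.31 to 11.46 in null and 11.04 to 11.23 in WT), Leydig cell markers for 3 of 5 (11.81 to 12.20 in null and 11.37 to 11.95 in WT) and macrophage markers for 2 of 8 (9.21 to 9.42 in null and 8.80 to 9.24 in WT), beside 8.03% of all detected genes; the array means of the last 2 lists overlapped between the genotypes. Of peritubular and smooth muscle markers 0 of 6 passed, also at an unadjusted p under 0.05 (9.48 to 9.73 in null and 9.44 to 9.90 in WT), and of endothelial markers 0 of 7 were higher and 1, Vwf, was lower (7.28 to 7.39 in null and 7.17 to 7.40 in WT). Spermatogonial markers had Gfra1 and Kit higher and Sohlh1 lower of 8 (9.11 to 9.21 in null and 8.99 to 9.23 in WT), spermatocyte markers 1 lower of 10, and markers of epididymis and seminal vesicle Svs6 and Svs5 higher (log2 fold changes 1.06 and 0.71) and Svs4 lower of 4 detected (7.30 to 7.44 in null and 7.04 to 7.34 in WT). The signal of the 3′ end over the 5′ end of Gapdh, a sign of RNA quality, was 0.81 to 0.90 log2 units in null and 0.92 to 0.95 in WT arrays, while that of beta-actin overlapped, at 0.54 to 0.62 in null and 0.56 to 0.65 in WT arrays.

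Exocytosis is the fusion of a vesicle with the plasma membrane. SNARE proteins on the vesicle and on the target membrane zip into a bundle that pulls the membranes together, complexins bind the partly zipped bundle, and synaptotagmins sense calcium and trigger the final step. After fusion, the adaptor alpha-SNAP and the ATPase NSF pull the spent bundle apart so that its parts can be used again. In sperm the same machinery serves the acrosome reaction, the release of the large vesicle that caps the sperm head.

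Only Syt7 and Cplx1 moved past the threshold in null testes, and in opposite directions: 3 of the 4 Syt7 probe sets were higher and 2 of the 3 Cplx1 probe sets were lower than in WT testes. Over all 31 probe sets 5 passed an adjusted p of 0.05 in limma, 3 higher and 2 lower. Across the whole array 4.12% of the probe sets passed as higher and 3.36% as lower, 1856 and 1511 of 45037; with each array centred on its median the split was 1381 higher and 1884 lower. The other 26 probe sets, all those of Syt4, Syt6, Syt11, Stx2, Snap23, Cplx2, Napa and Nsf among them, did not pass. Of the 31, 9 had an unadjusted p under 0.05. The share of the whole array at that unadjusted limit was not worked out, so no excess can be read from this count. The detected probe sets of the 10 genes had a median log2 fold change of -0.02, beside -0.01 over all detected single-gene probe sets.

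**Figure D1:**
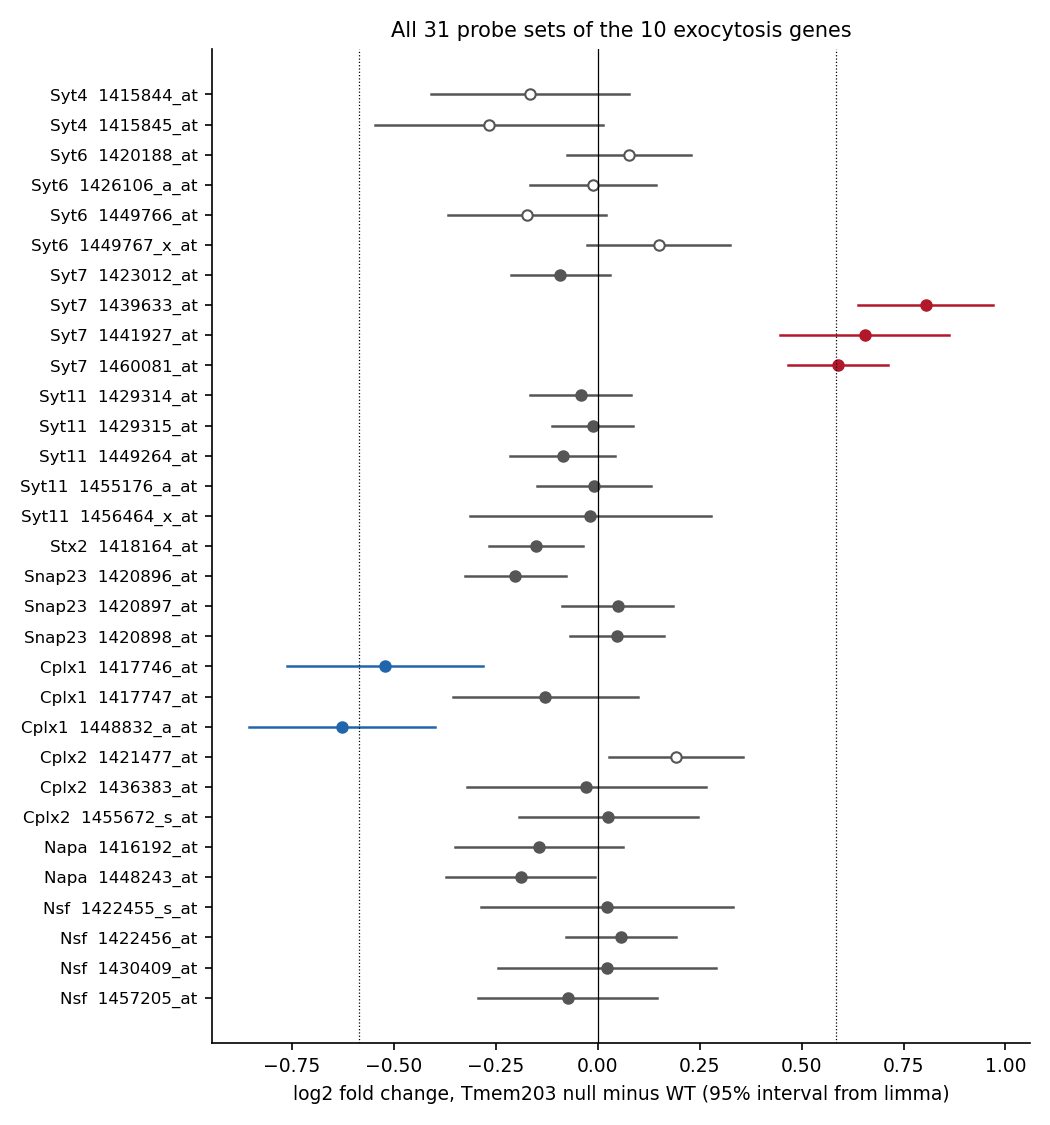
Log2 fold change of every probe set of the 10 genes, Tmem203 null minus WT, with the 95% interval from limma; red marks probe sets that passed as higher, blue those that passed as lower, grey those that did not pass, and open circles those that were not detected. The dotted lines mark a change of 1.5-fold; the 3 red points are Syt7 at 0.59 to 0.80 and the 2 blue points are Cplx1 at -0.63 and -0.52.

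Syt7, on chromosome 19, encodes a synaptotagmin with high affinity for calcium that serves slow vesicle release and the fusion of lysosomes with the plasma membrane. It was the member with the largest change, 1.75-fold higher in null testes on its strongest responding probe set. Probe set 1439633_at read 8.14, 7.90, 7.85, 7.75 and 7.89 in null testes and 7.08, 7.16, 7.12 and 7.07 in WT testes. All 5 null arrays lay above all 4 WT arrays, with a gap of 0.60 between the lowest null and the highest WT value. The means were 7.91 ± 0.14 in null (SD, n = 5) and 7.11 ± 0.04 in WT (SD, n = 4), a log2 fold change of 0.80 (SE 0.07, 95% interval 0.64 to 0.97, limma adjusted p = 2.89e-04).

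Probe set 1460081_at of Syt7 gave the same order of the groups, with 8.77, 8.70, 8.71, 8.66 and 8.65 in null testes and 8.16, 8.13, 7.98 and 8.17 in WT testes. The log2 fold change was 0.59 (SE 0.06, limma adjusted p = 3.28e-04). The null arrays of this probe set were tightly grouped, with an SD of 0.05, and did not overlap the WT arrays. Probe set 1441927_at read 8.85, 9.04, 8.77, 8.86 and 8.88 in null testes and 8.44, 8.08, 8.03 and 8.35 in WT testes. Its log2 fold change was 0.65 (SE 0.09, limma adjusted p = 0.00297), and the lowest null array lay 0.33 above the highest WT array. These 3 were the only detected probe sets of the 10 genes with every null array above every WT array, an order that 7.82% of all detected single-gene probe sets had.

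The fourth Syt7 probe set, 1423012_at, went with none of the others. It read 4.97, 4.81, 4.87, 4.97 and 4.88 in null testes and 4.97, 4.97, 4.95 and 5.08 in WT testes, so that it reached the detection level on a single WT array. Its log2 fold change was -0.09 (95% interval -0.21 to 0.03, limma adjusted p = 0.352). Over the 9 arrays the 3 responding probe sets correlated with one another at Pearson's r of 0.88 to 0.97, which includes the difference between the genotypes; within the groups r was -0.17 to 0.53, so the arrays that were high on 1 of them were not regularly high on the next.

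The increase of Syt7 was present whichever array was left out: the log2 fold change stayed between 0.75 and 0.84 for 1439633_at, between 0.59 and 0.73 for 1441927_at and between 0.55 and 0.61 for 1460081_at, all with an adjusted p under 0.05. The markers of Sertoli cells, Leydig cells and macrophages that passed, given above, were also higher in the null arrays, and their part in the Syt7 signal was not tested. In whole testis RNA more cells of a type and more RNA per cell cannot be told apart. Markers of neurons and neuroendocrine cells, in which Syt7 is well known, had a mean of 6.89 to 6.98 in null and 6.93 to 7.06 in WT arrays, and of 7 detected markers 1, Tubb3, passed as higher (log2 fold change 0.46, limma adjusted p = 0.0195). The other 6 had a log2 fold change under 0, and 2 of them had an unadjusted p under 0.05 in limma. Among the 6, Syp, Nefl and Prph had group means of 4.97 to 5.21, near the detection level of 5, where a change could be understated. The part of such cells in the Syt7 signal was not tested.

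**Figure D2:**
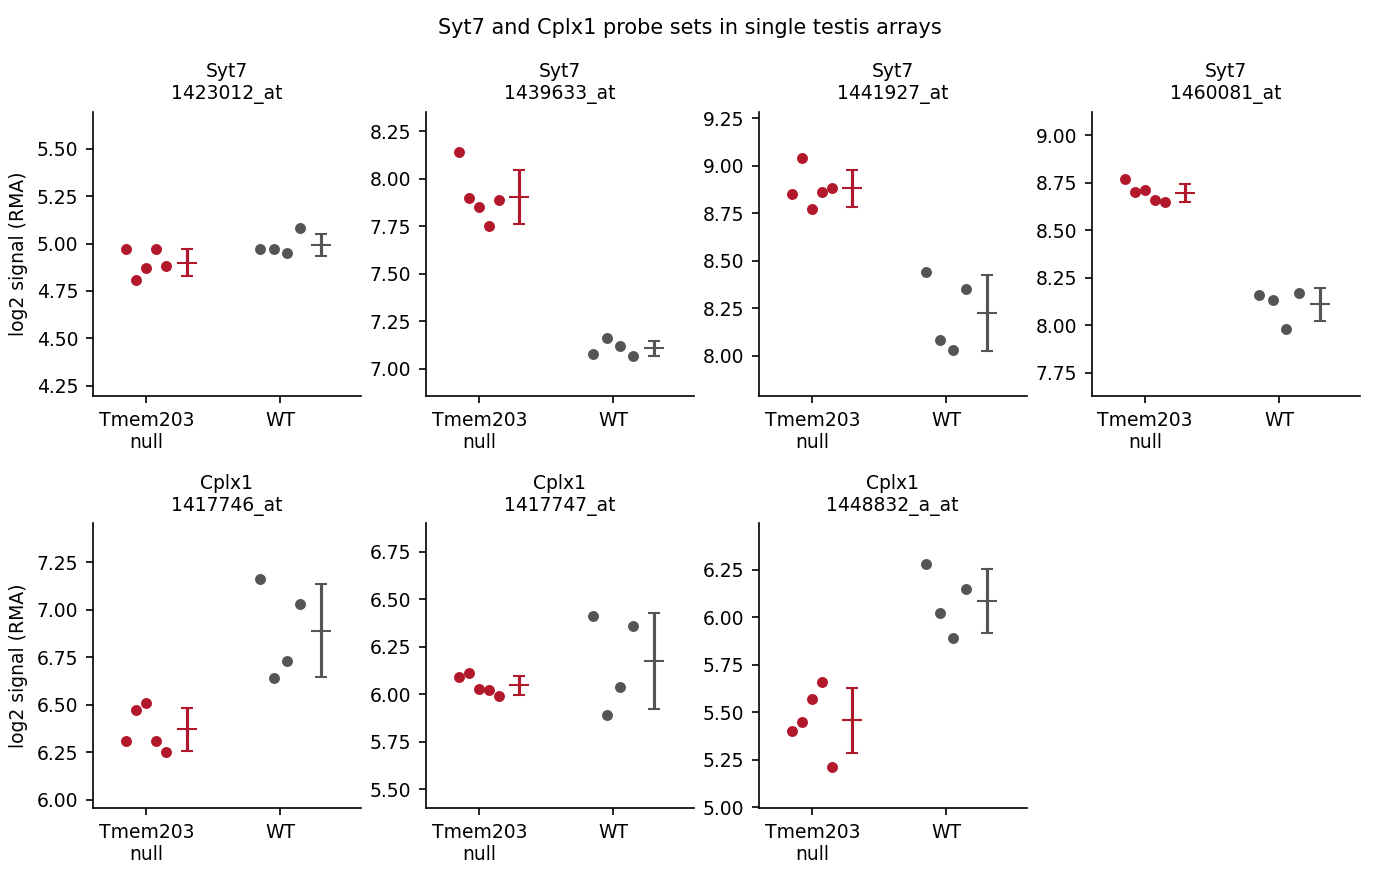
Log2 signal of each array for the 4 probe sets of Syt7 (top) and the 3 of Cplx1 (bottom), Tmem203 null in red and WT in grey, with the mean and SD of each group beside the points; the vertical axes cover equal spans. Null arrays sit above WT arrays for Syt7 at 1439633_at, 1441927_at and 1460081_at and below them for Cplx1 at 1417746_at and 1448832_a_at, while 1423012_at and 1417747_at overlap.

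Among the other synaptotagmins, Syt11 was detected on every array and did not pass on any of its 5 probe sets. Syt11, on chromosome 3, belongs with Syt4 to the synaptotagmins that bind little or no calcium. Its probe set with the smallest p, 1449264_at, lay between 9.97 and 10.10 in null testes and between 10.01 and 10.21 in WT testes. The groups overlapped, and the log2 fold change was -0.09 (95% interval -0.22 to 0.04, limma adjusted p = 0.414). The 5 probe sets spanned -0.09 to -0.01, with adjusted p of 0.414 to 0.951, and the widest interval, that of 1456464_x_at, ran from -0.31 to 0.28.

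Syt6, which has been linked to the acrosome reaction in human sperm, stayed below detection on all 4 of its probe sets, with log2 signals of 2.77 to 4.44 over all arrays and log2 fold changes of -0.17 to 0.15 (limma adjusted p = 0.271 to 0.940). Syt4 was below detection on both of its probe sets as well, with signals of 2.94 to 4.95. Its log2 fold changes were -0.27 and -0.17 (limma adjusted p = 0.239 and 0.401). Signals at this level may be background, so the arrays set no level for either gene. Set against Syt11 over the detected probe sets of each gene, Syt7 shifted by 0.49 and Syt11 by -0.03 (null minus WT), a difference of 0.52. An exact permutation test of that difference over the 9 arrays, two-sided, gave p = 0.0159, the smallest that 5 against 4 arrays allow, and 0.0634 after Benjamini-Hochberg adjustment over the 4 gene pairs compared in this way, which were added after the values had been seen.

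The SNARE genes Stx2 and Snap23 were well detected and did not pass the test, with differences well under 1.5-fold. Stx2, on chromosome 5, encodes syntaxin 2, a SNARE of the plasma membrane; mice that lack it are known for male sterility, with germ cells that fuse into multinucleate bodies. Its only probe set, 1418164_at, read 9.60, 9.68, 9.69, 9.65 and 9.64 in null testes and 9.83, 9.90, 9.76 and 9.73 in WT testes. All null arrays lay below all WT arrays, by 0.03 at the closest, and the log2 fold change was -0.15 (SE 0.05, 95% interval -0.27 to -0.04, unadjusted p = 0.0155 and adjusted p = 0.113 in limma). Of all detected single-gene probe sets, 7.76% had every null array below every WT array; among the 24 of these genes 4 did, at Stx2, Snap23 and Cplx1.

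Snap23, on chromosome 2, encodes the widely expressed relative of the neuronal SNAP-25 and supplies a pair of helices to the SNARE bundle. Probe set 1420896_at read 11.52, 11.63, 11.55, 11.61 and 11.67 in null testes and 11.82, 11.86, 11.82 and 11.69 in WT testes. The groups were separated by 0.02, and the log2 fold change of -0.20 (SE 0.06, 95% interval -0.33 to -0.08) narrowly missed the threshold (limma adjusted p = 0.0546), which it passed with median centring (0.0346) and without WT replicate 4 (0.0356). This probe set did not pass in limma with array weights (adjusted p = 0.0648), with the replicate number as a block (0.16) or without any other array (0.0756 to 0.14). The 2 other probe sets of the gene did not follow it. Probe set 1420897_at read 10.13, 10.20, 10.30, 10.37 and 10.27 in null testes and 10.25, 10.14, 10.17 and 10.27 in WT testes (log2 fold change 0.05, 95% interval -0.09 to 0.18), and 1420898_at read 7.90, 8.01, 7.87, 7.82 and 7.90 in null testes and 7.87, 7.80, 7.87 and 7.87 in WT testes (0.05, 95% interval -0.07 to 0.16). The direction of Snap23 therefore differs between its probe sets. With the 3 probe sets averaged, Stx2 shifted by -0.15 and Snap23 by -0.04, a difference of -0.12 (two-sided exact permutation p = 0.0317, 0.0634 over the 4 pairs). With 1420896_at alone in place of the average, also tried after the values had been seen, the difference turned to 0.05 (exact permutation p = 0.19).

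**Figure D3:**
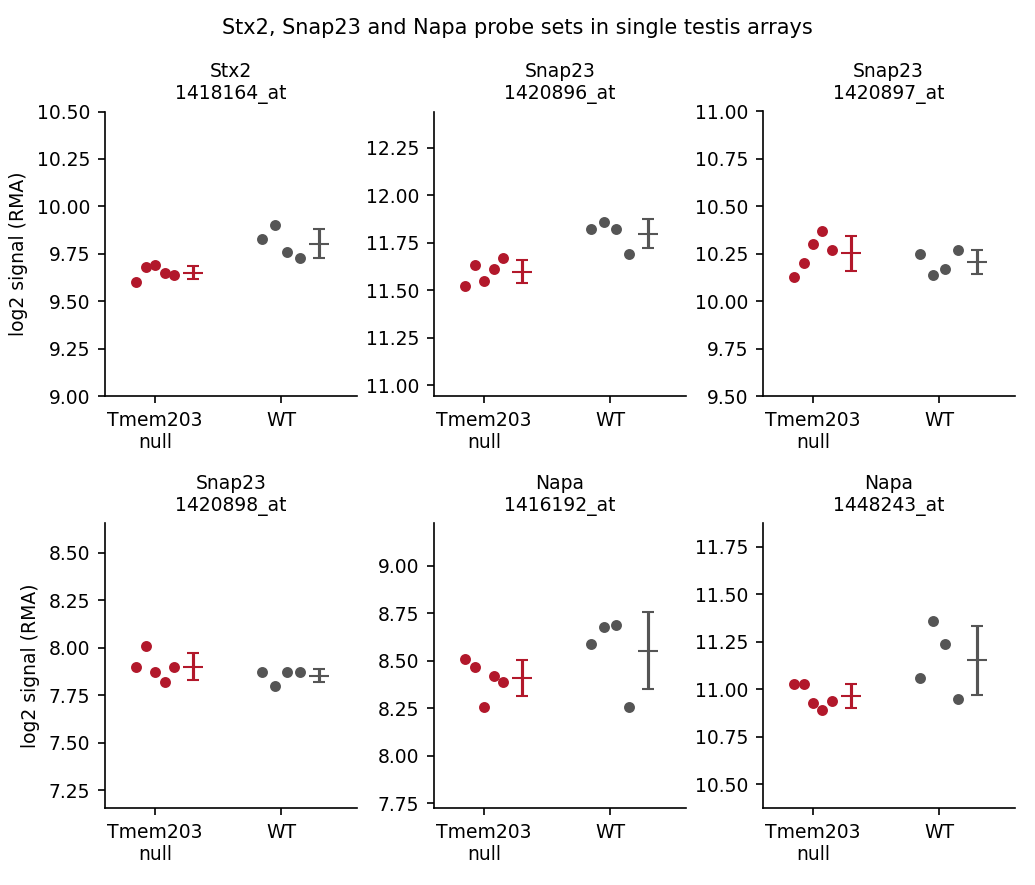
Log2 signal of each array for the probe sets of Stx2, Snap23 and Napa, Tmem203 null in red and WT in grey, with the mean and SD of each group; the vertical axes cover equal spans. The null arrays lie just below the WT arrays for Stx2 and for Snap23 at 1420896_at, by 0.03 and 0.02, and overlap them in the other 4 panels.

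Cplx1 was lower in null testes by 1.54-fold on its most changed probe set. Complexin 1, encoded on chromosome 5, binds the SNARE bundle and both holds back and primes calcium-triggered fusion; sperm of mice that lack it are known to have a weakened acrosome reaction. Probe set 1448832_a_at read 5.40, 5.45, 5.57, 5.66 and 5.21 in null testes and 6.28, 6.02, 5.89 and 6.15 in WT testes. Every null array lay below every WT array, by 0.23 at the closest, with means of 5.46 ± 0.17 in null (SD, n = 5) and 6.08 ± 0.17 in WT (SD, n = 4). The log2 fold change was -0.63 (SE 0.10, 95% interval -0.85 to -0.40, limma adjusted p = 0.006).

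The second probe set, 1417746_at, read 6.31, 6.47, 6.51, 6.31 and 6.25 in null testes and 7.16, 6.64, 6.73 and 7.03 in WT testes. The groups did not overlap here either, although the gap was 0.13, and the log2 fold change was -0.52 (SE 0.11, 95% interval -0.76 to -0.28, limma adjusted p = 0.0182). Without null replicate 5 its adjusted p was 0.0501. The third, 1417747_at, read 6.09, 6.11, 6.03, 6.02 and 5.99 in null testes and 6.41, 5.89, 6.04 and 6.36 in WT testes, where WT replicates 1 and 4 were high and WT replicates 2 and 3 were within or below the null range. Its log2 fold change was -0.13 (95% interval -0.36 to 0.10, limma adjusted p = 0.494). WT replicates 1 and 4 were the highest arrays on all 3 probe sets of Cplx1, and within the groups r between the probe sets was 0.53 to 0.89.

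By the thresholds of the study's methods, which add a change of at least 1.5-fold to the adjusted p, Syt7 was called higher and Cplx1 lower. Of all 16180 detected genes 1.44% were called higher and 1.18% lower in this way. Syt7 and Cplx1 are also on the study's own lists of changed genes, which come from these same arrays. The call of Cplx1 was lost without null replicate 5 or without WT replicate 1, where its log2 fold change fell short of 1.5-fold, while its adjusted p at 1448832_a_at stayed between 0.00516 and 0.0187 whichever array was left out. It also rests on a probe set of the _a_at class, which matches several transcripts of the gene; 1417746_at, of the plain _at class, reached 1.44-fold.

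The promoter of Cplx1 is shown because this was the called member with an entry in the RefSeq promoter table (Syt7 is named only), and because the study began from a screen for proteins that move the CREB coactivator CRTC1 into the nucleus. The window holds 280 bases, chr5:108549998-108550277 of GRCm38.p6 on the minus strand, and capitals mark the core of the cAMP response element, TGACG, here on the opposite strand.
Cplx1: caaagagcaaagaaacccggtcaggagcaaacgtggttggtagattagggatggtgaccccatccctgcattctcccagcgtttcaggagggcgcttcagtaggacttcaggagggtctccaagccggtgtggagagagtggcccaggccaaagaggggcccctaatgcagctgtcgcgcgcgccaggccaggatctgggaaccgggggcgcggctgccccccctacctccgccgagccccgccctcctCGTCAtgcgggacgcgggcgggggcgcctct
The match covers the transcription start, its first base lying at position -1. A match is a string of letters and not a measured binding site.

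Cplx2, the close relative of Cplx1 on chromosome 13, did not pass on any probe set. Probe set 1436383_at read 6.19, 6.34, 6.35, 5.82 and 5.89 in null testes and 6.12, 5.90, 6.19 and 6.37 in WT testes (log2 fold change -0.03, 95% interval -0.32 to 0.26, limma adjusted p = 0.924). Probe set 1455672_s_at read 5.97, 6.03, 6.03, 5.65 and 6.02 in null testes and 5.71, 5.97, 6.09 and 5.88 in WT testes (0.03, 95% interval -0.19 to 0.25, limma adjusted p = 0.905). The groups overlapped widely on both. The third probe set, 1421477_at, was below detection, with 4.28, 4.25, 4.32, 4.26 and 4.41 in null testes and 3.91, 4.24, 4.22 and 4.08 in WT testes (0.19, limma adjusted p = 0.154); every null array lay above every WT array, by 0.01 at the closest. Over detected probe sets Cplx1 shifted by -0.43 and Cplx2 by -0.0011, a difference of -0.42 (two-sided exact permutation p = 0.0476, 0.0635 over the 4 pairs).

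Of the disassembly genes, Napa had lower values in null testes without passing and Nsf showed no consistent direction. Napa, on chromosome 7, encodes alpha-SNAP, which docks NSF onto the spent SNARE bundle. Probe set 1448243_at read 11.03, 11.03, 10.93, 10.89 and 10.94 in null testes and 11.06, 11.36, 11.24 and 10.95 in WT testes. Only WT replicate 4 lay inside the null range, and the log2 fold change was -0.19 (SE 0.08, 95% interval -0.37 to -0.01, unadjusted p = 0.0443 and adjusted p = 0.202 in limma). Probe set 1416192_at read 8.51, 8.47, 8.26, 8.42 and 8.39 in null testes and 8.59, 8.68, 8.69 and 8.26 in WT testes, again with WT replicate 4 apart from the other WT arrays (log2 fold change -0.14, 95% interval -0.35 to 0.06, limma adjusted p = 0.396). The probe sets varied together within the groups, with r of 0.82 over the 9 arrays.

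The Napa promoter is shown as the only one among these genes with the full cAMP response element, TGACGTCA, in capitals below; the window holds 280 bases, chr7:16098330-16098609 of GRCm38.p6 on the plus strand.
Napa: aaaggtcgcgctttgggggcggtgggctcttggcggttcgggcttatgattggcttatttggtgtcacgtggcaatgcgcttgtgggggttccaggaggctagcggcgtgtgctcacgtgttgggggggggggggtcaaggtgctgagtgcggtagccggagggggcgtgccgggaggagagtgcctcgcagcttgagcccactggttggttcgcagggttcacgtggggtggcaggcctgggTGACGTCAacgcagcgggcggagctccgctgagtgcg
Its first base lies at position -7 from the start. Of 32851 mouse promoter windows, from 250 bases before to 50 after the start, 1.79% hold TGACGTCA and 20.8% hold TGACG on either strand; the shorter string lies inside the longer. Windows were found for 8 of the 10 genes, and TGACG occurred in those of Cplx1 and Napa alone. The core letters of NFAT sites, GGAAA, occurred in windows of 5 of the 8 genes (Cplx2, Snap23, Stx2, Syt11 and Syt6) and in 61.3% of all windows, and the E-box CACGTG in those of Napa, Nsf and Syt6 and in 7.15% of all windows. The NRF1 string GCATGCGC occurred in that of Snap23 and in 2.71% of all windows. Called and uncalled genes alike held matches, and nothing follows from these letters about binding.

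Nsf, on chromosome 11, encodes the ATPase that separates SNARE bundles. Its best detected probe set, 1422456_at, read 8.61, 8.58, 8.64, 8.58 and 8.77 in null testes and 8.61, 8.60, 8.46 and 8.63 in WT testes, with a log2 fold change of 0.06 (95% interval -0.08 to 0.19, limma adjusted p = 0.614). The 4 probe sets ranged from -0.07 to 0.06 with adjusted p of 0.614 to 0.940. Averaged over detected probe sets, Napa shifted by -0.17 and Nsf by 0.01, a difference of -0.17 (two-sided exact permutation p = 0.222 before and after adjustment over the 4 pairs). Of the 4 pairs, none passed after adjustment. Syt7 and Syt11 had the smallest p that the arrays allow, 0.0159, and it still adjusted to 0.0634. Over 4 pairs, a pair at that smallest p cannot pass unless other pairs have small p-values too. The lack of a pass therefore does not show that the genes of a pair behaved alike. As the pairs were added after the values had been seen, no conclusion is drawn from their unadjusted p-values either.

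Relatives and partners of this machinery, among them SNAREs of the Golgi and lysosomes, and genes of the acrosome made up 128 other genes, of which 116 were detected. In null testes 11 of them passed an adjusted p of 0.05 as higher and 7 as lower, or 9.48% and 6.03%, beside 8.03% and 6.82% of all detected genes by the same rule, so the shares lay near those of the whole array; after median centring the counts were 9 and 9. Where a gene had several detected probe sets, the one of smallest p was counted. The median log2 fold change was -0.06 over the 116 genes, -0.12 over the 8 detected genes described above and -0.03 over all detected genes. By the 1.5-fold thresholds 4 were called higher, Cadps, Rab3b, Stxbp6 and Doc2b, and 1, Syt13, was called lower. All but Doc2b are also on the study's own lists from these arrays.

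Among other synaptotagmins and their relatives, 2 of 22 detected genes were higher and 2 lower. The largest decrease was that of Syt13, an atypical synaptotagmin that does not bind calcium: it read 5.95, 5.76, 5.77, 6.33 and 6.43 in null testes and 7.34, 6.79, 7.51 and 7.30 in WT testes, a log2 fold change of -1.18 (SE 0.18, limma adjusted p = 0.00397). Syt5, a calcium sensor of dense-core vesicles, was lower by a smaller step, with 10.25, 10.31, 10.11, 10.13 and 10.09 in null and 10.64, 10.71, 10.61 and 10.59 in WT testes (-0.46, SE 0.06, limma adjusted p = 0.00207). The genotypes were fully separated for both genes. Sytl4, the Rab27 effector granuphilin, was higher on 1 probe set (0.52, SE 0.08, limma adjusted p = 0.00408) and not on the other (-0.11). Doc2b, a calcium sensor with tandem C2 domains named here after its values were seen, was higher by 0.63 (limma adjusted p = 0.0254), a call lost when any of null arrays 1, 2 and 3 or WT arrays 1 and 2 was left out (adjusted p = 0.0531 to 0.0728).

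Of 32 other detected SNARE genes, 3 were higher and 3 lower in limma. At an unadjusted p under 0.05, 7 were higher and 14 lower, and the list median was -0.11. The share of all detected genes at that unadjusted limit was not worked out. Vamp7, the longin SNARE of lysosomes and late endosomes, was higher on both probe sets, by 0.46 (SE 0.08, limma adjusted p = 0.0063) and 0.31 (limma adjusted p = 0.0477). Gosr2, a SNARE of the Golgi, was lower on 1 probe set, with 11.65, 11.69, 11.66, 11.65 and 11.64 in null and 12.03, 12.14, 12.16 and 12.02 in WT testes (log2 fold change -0.43, SE 0.05, limma adjusted p = 9.31e-04), while its other probe set stood at 0.10. Snap29, a partner of syntaxins in membrane traffic, stood at -0.28 (SE 0.06, limma adjusted p = 0.0193), and its other probe sets at -0.13 and 0.01; without WT replicate 2 its adjusted p was 0.0578. The remaining calls, named after their values were seen, were Stx7 (0.44), Stx1a (0.32) and Vamp4 (-0.19), with adjusted p of 0.0280, 0.0459 and 0.0368; the 2 other probe sets of Vamp4 stood at 0.12 and -0.09, and the other of Stx1a at 0.28. The Stx7 call was lost on leaving out any of 7 of the 9 arrays (adjusted p = 0.0558 to 0.0844), that of Stx1a on leaving out any array (0.0577 to 0.101) and that of Vamp4 on leaving out any but null replicate 2 (0.0551 to 0.0926).

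The regulators of SNARE assembly had 3 of 17 detected genes higher and 0 lower in limma, and likewise 3 and 0 at an unadjusted p under 0.05. Cadps, which primes dense-core vesicles, read 6.66, 6.62, 6.54, 6.69 and 6.77 in null testes and 5.75, 5.97, 5.66 and 5.74 in WT testes, a log2 fold change of 0.88 (SE 0.07, limma adjusted p = 1.50e-04). Stxbp6, also called amisyn, which binds syntaxin, read 8.02, 7.93, 7.85, 7.91 and 7.98 in null testes and 7.38, 6.92, 7.10 and 7.44 in WT testes (0.72, SE 0.10, limma adjusted p = 0.00274), and its other probe set stood at 0.25. Both genes had every null array above every WT array. Stxbp3, the syntaxin chaperone Munc18c, was higher by 0.41 (SE 0.08, limma adjusted p = 0.0129).

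Rab and docking genes had 3 of 21 detected genes higher and 2 lower. Rab3b, a vesicle GTPase, read 9.56, 9.26, 9.33, 9.31 and 9.39 in null testes and 8.53, 8.88, 8.67 and 8.43 in WT testes, a log2 fold change of 0.74 (SE 0.09, limma adjusted p = 0.00163). Rab3il1, a nucleotide exchange factor for Rab proteins, was higher on 1 probe set (0.52, SE 0.10, limma adjusted p = 0.0106) and stood at 0.06 to 0.13 on its 3 others. Rims3, of the family that tethers vesicles at active zones, was lower on 1 probe set (-0.57, SE 0.07, limma adjusted p = 0.00138) and stood at -0.04 on the other. Rab3d (-0.42, adjusted p = 0.0335) and Exoc6b (0.18, adjusted p = 0.0437) were named after their values were seen. The 2 other detected probe sets of Rab3d stood in the opposite direction, at 0.24 and 0.21 (limma adjusted p = 0.275 and 0.262), and the other of Exoc6b at 0.05. The call of Rab3d was lost when any of null arrays 2, 3 and 5 or WT arrays 1 and 2 was left out (adjusted p = 0.0678 to 0.1), and that of Exoc6b when any array was (0.0651 to 0.102).

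None of the 24 detected acrosome genes passed the test in limma, although 7 had an unadjusted p under 0.05, all lower in null testes. Of the 24, 23 had a log2 fold change under 0, with a median of -0.11. The median was also -0.11 over the 32 other SNARE genes, and -0.03 over all detected genes. The shares of all detected genes at these limits were not worked out, so the counts cannot be read as particular to the acrosome. The mean over the list was 12.29 to 12.39 in null arrays and 12.39 to 12.46 in WT arrays. Pick1, which is needed to build the acrosome from Golgi vesicles, came nearest, with 7.88, 8.30, 8.32, 8.46 and 8.40 in null and 8.66, 8.77, 8.79 and 8.53 in WT testes (log2 fold change -0.42, SE 0.11, limma adjusted p = 0.0506), while its other probe set stood at -0.02. Izumo1, the sperm protein that binds the egg, followed at -0.22 (SE 0.07, limma adjusted p = 0.075) and Zpbp, which binds the zona pellucida, at -0.21 (SE 0.07, limma adjusted p = 0.0863). Without WT replicate 4 the adjusted p of Izumo1 was 0.0274, and without null replicate 1 that of Pick1 was 0.0431; with median centring Pick1 passed as well (0.0405). Over all fits with 1 array left out, the limma adjusted p reached 0.185 for Izumo1 and 0.136 for Pick1.

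**Figure D4:**
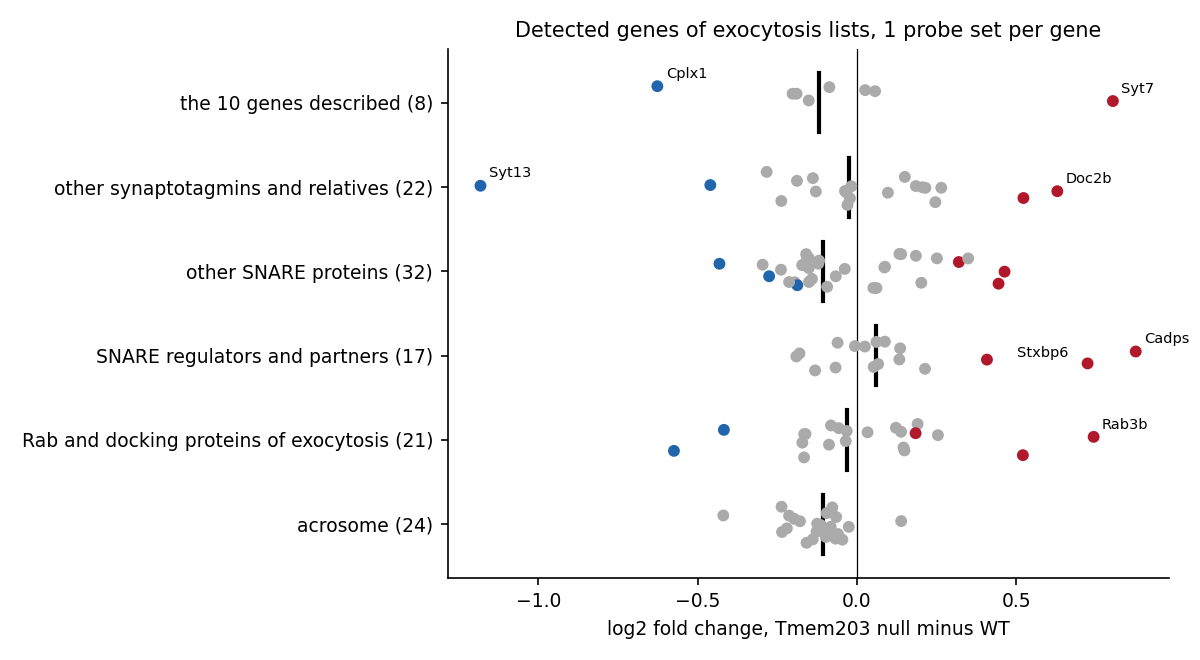
Log2 fold change, Tmem203 null minus WT, of each detected gene of the exocytosis and acrosome lists, read on the probe set of smallest p; red and blue mark genes that passed as higher and lower, grey those that did not, bars the list medians, and numbers in brackets the detected genes. Named points exceed 1.5-fold: Syt7, Cadps, Rab3b, Stxbp6 and Doc2b on the right and Syt13 and Cplx1 on the left, while all 24 acrosome genes are grey.

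The genes whose signal over the 9 arrays was most like that of the called members were listed as a description; these correlations hold the difference between the genotypes as well as the spread within them. As the genes were picked by r over these same arrays, a high r within the groups follows in part from that choice. For Syt7 at 1439633_at they were Tnfrsf12a (Pearson's r 0.99, and 0.79 within the groups), Lhfp (0.99 and 0.85) and Xiap (0.99 and 0.83), which were higher in null testes by 1.27, 0.48 and 0.54 on the log2 scale. For Cplx1 at 1448832_a_at they were Six4 (0.97 and 0.86 within the groups), Pik3r5 (0.96 and 0.91) and Mef2a (0.96 and 0.87), with log2 fold changes of -0.71, -0.36 and -0.29.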

How the data were processed

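Per the labels and the study's methods, the authors hybridised testis RNA of 5 Tmem203 null and 4 WT samples to Affymetrix whole-genome mouse expression arrays, checked the scans with arrayQualityMetrics and applied Robust Multichip Average (background adjustment, quantile normalization, summarization). Each deposited value is the log2 signal of a probe set, whose lower end is compressed by this summarization; the processing notes name limma. All columns were mapped to samples. Scan dates were not given in the sources used here, so no batch could be tested, and the number of arrays limits the precision.

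From these values, null and WT were compared in limma 3.58.1 (R 4.3.3, lmFit and eBayes, no covariates) with Benjamini-Hochberg adjustment over 45037 probe sets, without the manufacturer's 64 controls. The methods' thresholds were an adjusted p under 0.05, a 1.5-fold change, detection (a log2 signal reaching 5 on any array) and annotation to a single gene. Of the probe sets, 34945 carried 1 gene in the platform annotation, 932 several and 9160 none; 34741 of the first were matched to RefSeq (GRCm38.p6) by Entrez identifier, and promoters came from RefSeq. Single values and differences between genes were tested by two-sided exact permutation over the arrays (scipy 1.17.1), the differences between genes as an addition made after the values had been seen. The fit was tested on simulated data. Named were every probe set of the 10 genes, the 3 genes with the smallest p of each further list and, for each called member, the 3 genes most correlated with it. The members and lists were chosen with earlier results of these data known. Alternatives were centring, quantile normalization, array weights, a trended robust variance, detected probe sets only, the replicate block, other choices of probe set and leaving out each array.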

Additional observations from a re-analysis of the deposited data

Results flagged for a closer look

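In 5 of the 62 groups of arrays examined (31 probe sets, each in null and in WT), 1 array lay farther from the rest of its group than Dixon's 95% limit allows, and chance alone does so in about 5% of groups. Null replicate 4 read 5.65 for Cplx2 at 1455672_s_at against 5.97 to 6.03 in the other null arrays, and 10.11 for Syt11 at 1429315_at against 10.16 to 10.17. Null replicate 1 read 3.67 for Syt6 at 1420188_at, below detection, against 3.39 to 3.47 in the others. WT replicate 4 read 5.08 for Syt7 at 1423012_at against 4.95 to 4.97 in the other WT arrays, and WT replicate 2 read 7.80 for Snap23 at 1420898_at against 7.87 on each of the others. None of these probe sets passed the test, and none of the Syt7 or Cplx1 probe sets that did pass had such an array.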

How the results depend on the processing

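The 3 responding probe sets of Syt7 and Cplx1 at 1448832_a_at passed under every alternative fit that was run. Of the probe sets of the 10 genes, 5 passed in the reported fit and 4 to 6 with 1 array left out; 2 genes were called, and 1 to 2 with 1 array left out. Arrays of the same replicate number did not deviate together (correlation of deviations -0.073, 0.105, -0.035 and -0.001), which does not exclude a pairing. With the number as a replicate block, which leaves null replicate 5 without a partner, 1 gene was called (Syt7, as Cplx1 fell short of 1.5-fold). In that fit 6 genes of the further exocytosis and acrosome lists passed as higher and 4 as lower, and 645 probe sets passed as higher and 529 as lower over the array. The trended robust variance gave 14 genes of these lists higher and 14 lower, and 2346 probe sets higher and 1900 lower over the array. Reading each gene on its strongest probe set called 1 of the 10 genes and gave 9 genes of these lists higher and 3 lower. Leaving out probe sets ending in _s_at, _x_at or _a_at also called 1 of the 10. For these fits and choices of probe set the share of all detected genes was not worked out. No excess can therefore be read from the list counts. With 1 array left out, 7 to 13 genes of these lists were higher and 4 to 10 lower, and 998 to 2173 probe sets were higher and 910 to 1492 lower. Snap23 at 1420896_at passed with median centring (adjusted p = 0.0346), further quantile normalization (0.0481), the trended robust variance (0.0175), detected probe sets only (0.0409) and without WT replicate 4 (0.0356). Pick1 passed with the same 4 fits on all arrays (0.0405, 0.0427, 0.0327 and 0.0420) and Izumo1 with the trended robust variance (0.0237). Snap23 at 1420896_at did not pass in limma with array weights (adjusted p = 0.0648) or the replicate block (0.16). With 1 array left out the limma adjusted p reached 0.14 for Snap23 at 1420896_at, 0.136 for Pick1 and 0.185 for Izumo1.

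Values that changed sign were near 0 and did not pass. With 1 array left out these were Syt6 1426106_a_at (-0.0501 to 0.0278), Syt11 1455176_a_at (-0.0403 to 0.0274) and 1456464_x_at (-0.1542 to 0.0684), Cplx2 1436383_at (-0.1094 to 0.0478) and 1455672_s_at (-0.0414 to 0.0989), and Nsf 1422455_s_at (-0.0979 to 0.1243) and 1430409_at (-0.0881 to 0.1041). Centring gave -0.0055 for Cplx2 1455672_s_at, -0.0079 for Nsf 1422455_s_at and -0.0083 for Nsf 1430409_at. Further quantile normalization gave 0.0187 for Syt6 1426106_a_at and -0.0082 for Nsf 1422455_s_at. Array weights gave 0.0092 for Syt6 1426106_a_at, -0.0305 for Nsf 1422455_s_at and -0.0606 for Nsf 1430409_at. The block gave 0.0041 for Syt11 1456464_x_at, 0.0273 for Cplx2 1436383_at and -0.0400 for Nsf 1430409_at. The difference of Stx2 and Snap23 turned to 0.0509 with the probe set of the smallest p. The cause of these changes was not tested. Array signals near the detection level carry background, so a change in Syt4, Syt6 or the weak probe sets of Cplx2 and Nsf could be understated. Called probe sets also lay not far above that level: Cplx1 at 1448832_a_at read 5.21 to 6.28 and Doc2b 5.15 to 6.15 over all arrays.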
